A study of Mus musculus with 19 samples.

Results

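Interferon response genes are the genes that a cell switches on when an interferon binds its receptor, and 42 of them were followed here over 19 mouse lymphomas. They were taken by symbol from a table of normalised expression that lists 21086 genes, and all 42 were present. By textbook knowledge they were divided into 29 type I like genes, 9 gamma-induced GTPases, and 4 chemokine and feedback genes, namely Irf1, Cxcl9, Cxcl10 and Socs1. All 42 had a normalised value of at least 1 in at least 4 tumours, which was the condition for testing a gene, as did 19927 genes of the table. The tumours arose in Eμ-Myc mice, whose Myc transgene is driven by the immunoglobulin heavy chain enhancer, so that the oncogene is expressed in B cells. Every tumour of both genotypes carried the transgene. The 4 groups compared were 4 late-onset tumours of Bptf+/Δ mice (onset at 30 to 66 weeks), 4 early-onset tumours of Bptf+/Δ mice (8 to 13 weeks), 5 late-onset tumours of Bptf+/+ mice (28 to 76 weeks) and 6 early-onset tumours of Bptf+/+ mice (9 to 17 weeks). Bptf encodes a subunit of the NURF nucleosome remodelling complex, and the Δ allele is a deletion (its exons are not given in the sources used here). Tumours are named below by genotype (HET for Bptf+/Δ, WT for Bptf+/+), onset and a number, as in HET_late_1, and values of a group are listed in the order of that number. Onset class and age cannot be told apart, and nothing in the labels says that tumours share a litter or a batch.

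Type I interferons signal through the receptor chains Ifnar1 and Ifnar2 and the kinases Jak1 and Tyk2 to a transcription factor complex that contains Stat2 and Irf9 and binds the interferon-stimulated response element (ISRE) of antiviral genes. Interferon gamma, which T cells and natural killer cells release, signals through Ifngr1, Ifngr2, Jak1 and Jak2 to genes with a gamma-activated site (GAS). In mice the immunity-related GTPases (Igtp, Irgm1, Irgm2, Iigp1) and the guanylate-binding proteins (Gbp2 to Gbp7) defend cells against intracellular pathogens and are strongly induced by interferon gamma, although type I interferons induce many of them too.

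The DNA just before the start of 5 members is shown to let a reader see both elements, a GAS beside an ISRE in the neighbouring GTPase genes Igtp and Irgm2, a GAS alone in Irf1, and ISREs alone in Isg15 and Ifit3. Each sequence is the 160 bases before the gene's RefSeq start, 5′ to 3′ on the gene's strand, from RefSeq on build GRCm38.p6. They lie at chr11:58199396-58199555 (plus strand) for Igtp, chr11:58214817-58214976 (plus) for Irgm2, chr11:53769854-53770013 (plus) for Irf1, chr4:156200819-156200978 (minus) for Isg15 and chr19:34583369-34583528 (plus) for Ifit3. None of these 160 bases is exonic in GENCODE M21, where the Irgm2 stretch is intronic to a longer Irgm2 transcript and the other 4 are intergenic. Capitals mark matches to GAAANNGAAA or its reverse complement TTTCNNTTTC (ISRE) and to TTCNNNGAA, which is its own reverse complement (GAS).
Igtp: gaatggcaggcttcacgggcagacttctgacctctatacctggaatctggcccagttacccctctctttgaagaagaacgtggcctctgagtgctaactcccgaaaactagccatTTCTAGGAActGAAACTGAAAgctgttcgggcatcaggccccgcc
Irgm2: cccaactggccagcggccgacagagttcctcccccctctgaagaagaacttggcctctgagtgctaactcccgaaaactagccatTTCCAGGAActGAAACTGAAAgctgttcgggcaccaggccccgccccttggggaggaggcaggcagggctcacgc
Irf1: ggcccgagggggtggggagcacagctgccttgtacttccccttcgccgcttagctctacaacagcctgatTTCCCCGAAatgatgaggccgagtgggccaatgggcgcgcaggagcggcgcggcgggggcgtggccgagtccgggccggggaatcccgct
Isg15: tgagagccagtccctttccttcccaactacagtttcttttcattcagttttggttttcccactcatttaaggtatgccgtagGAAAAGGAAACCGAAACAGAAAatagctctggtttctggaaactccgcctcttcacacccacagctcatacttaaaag
Ifit3: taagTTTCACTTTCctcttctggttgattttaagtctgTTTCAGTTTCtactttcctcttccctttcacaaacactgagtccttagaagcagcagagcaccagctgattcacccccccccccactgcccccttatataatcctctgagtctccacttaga
The Igtp and Irgm2 stretches hold the GAS and the ISRE in the same order, with the GAS starting at -45 and -75 and the ISRE at -34 and -64. Isg15 has 3 overlapping ISRE matches, starting at -78, -72 and -66. RefSeq promoters, read from 250 bases before to 50 bases after the start, were found for 30 of the 42 members. An ISRE was present in 19 of these 30 genes (63.3%) and a GAS in 7 (23.3%), against 3.99% and 9.55% of the 27025 genes with a promoter. The ISRE was present in 11 of 20 type I like genes (55%), in 6 of 6 GTPases and in 2 of 4 chemokine and feedback genes. The GAS was present in 3 of 20 type I like genes (15%), in 3 of 6 GTPases (Igtp, Irgm2 and Gbp7), each beside an ISRE, and in 1 of 4 chemokine and feedback genes (Irf1). Both strands were searched and overlapping matches were kept, and a match describes the letters only.

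Sequencing depth was 8297856 to 12497732 reads per tumour. Bptf, the deleted gene, had normalised read counts of 1573, 408, 1137 and 694 in HET_late tumours, 1551, 1432, 1277 and 1521 in HET_early tumours, 1681, 2391, 2586, 2087 and 2217 in WT_late tumours and 1665 to 2479.98 (median 2065) in WT_early tumours. Every HET tumour lay below every WT tumour, and the mean difference was -0.92 on the log2 scale (exact two-sided permutation test, p = 1.32e-05, the smallest that 19 tumours in these groups allow). Eef1a1 was the most abundant transcript in all tumours except HET_late_4 (Igha), HET_early_2 (Col2a1) and WT_early_6 (Bpifa2). As a check of the B-lineage label, 15 pan-B markers summed to 1503 in HET_early_2 and to 14800.3 or more in every other tumour. In HET_early_2, 12 stromal markers summed to 999633. HET_early_2 therefore stands apart. Results for the interferon response genes that rest on it are given with and without it, while marker medians are given only with it. Polyadenylated RNA came from whole frozen lymphomas, for which no sorting is stated, so fewer cells of a type and less RNA per cell cannot be told apart in any value below.

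The GTPases and the type I like genes were highest in different Bptf+/Δ tumours, while among late wild-type tumours both were highest in WT_late_2 and low in WT_late_4 and WT_late_5. Averaged over the 9 GTPases, the mean log2(value + 1) of the tumour was 8.41, 8.01, 6.49 and 8.44 in HET_late tumours, 6.64, 7.06, 6.83 and 6.74 in HET_early tumours, 7.10, 7.51, 6.79, 5.20 and 5.49 in WT_late tumours, and 5.63 to 6.91 (median 6.35) in WT_early tumours. HET_late_1, HET_late_2 and HET_late_4 lay above all other tumours, while HET_late_3 lay among the early tumours and had the lowest value of its group for all 9 GTPases. Averaged over the 29 type I like genes, the mean was 6.71, 6.80, 6.61 and 6.21 in HET_late tumours, 6.95, 7.47, 6.82 and 6.25 in HET_early tumours, 5.98, 7.14, 5.13, 5.01 and 5.30 in WT_late tumours, and 5.53 to 7.10 (median 6.33) in WT_early tumours. HET_early_2 had the highest mean and the highest value of all tumours for 11 of the 29 genes, and WT_late_2 led the WT_late group for 20 of the 29. The other 4 WT_late tumours were low, and WT_late_3, WT_late_4 and WT_late_5 were the lowest of all 19 tumours. The GTPase mean minus the type I like mean was 1.25 ± 1.01 in HET_late tumours, -0.05 ± 0.40 in HET_early tumours, 0.71 ± 0.66 in WT_late tumours and -0.04 ± 0.32 in WT_early tumours (SD, n = 4, 4, 5 and 6). It was above 1 in HET_late_1 (1.70), HET_late_2 (1.20), HET_late_4 (2.23), WT_late_1 (1.12) and WT_late_3 (1.66), and in no early tumour.

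**Figure D1:**
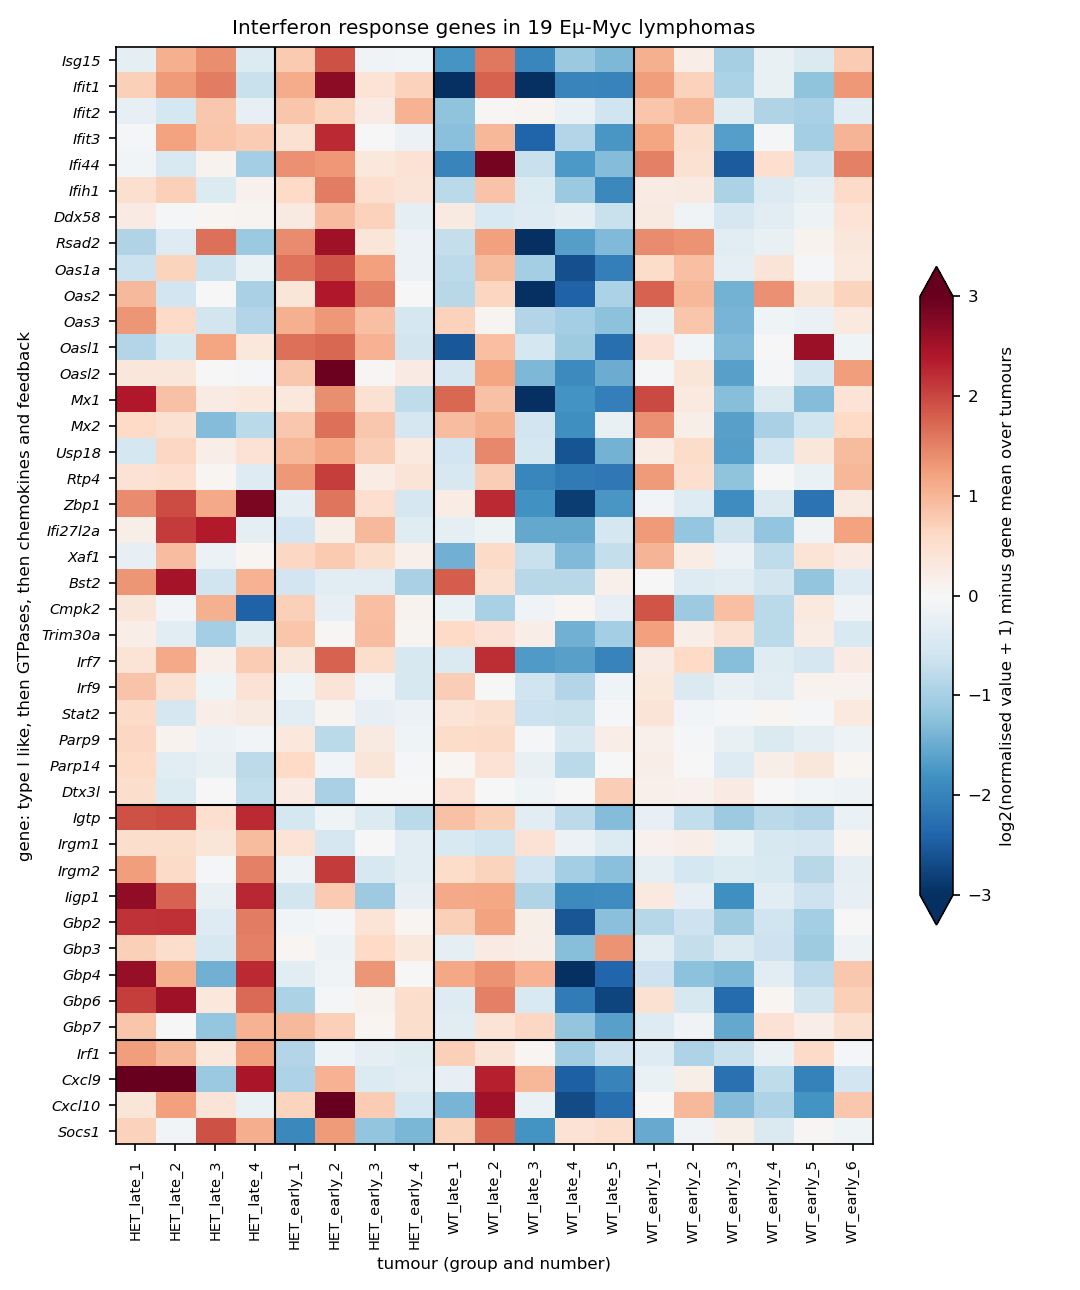
Heat map of the 42 members (rows, in the order type I like, GTPases, chemokine and feedback genes) in the 19 tumours (columns, by group), with colour for log2(normalised value + 1) minus the gene's mean over tumours. The GTPase block is red in HET_late_1, HET_late_2 and HET_late_4, and the type I like block is reddest in HET_early_2 and WT_late_2 and bluest in WT_late_3 to WT_late_5.

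**Figure D2:**
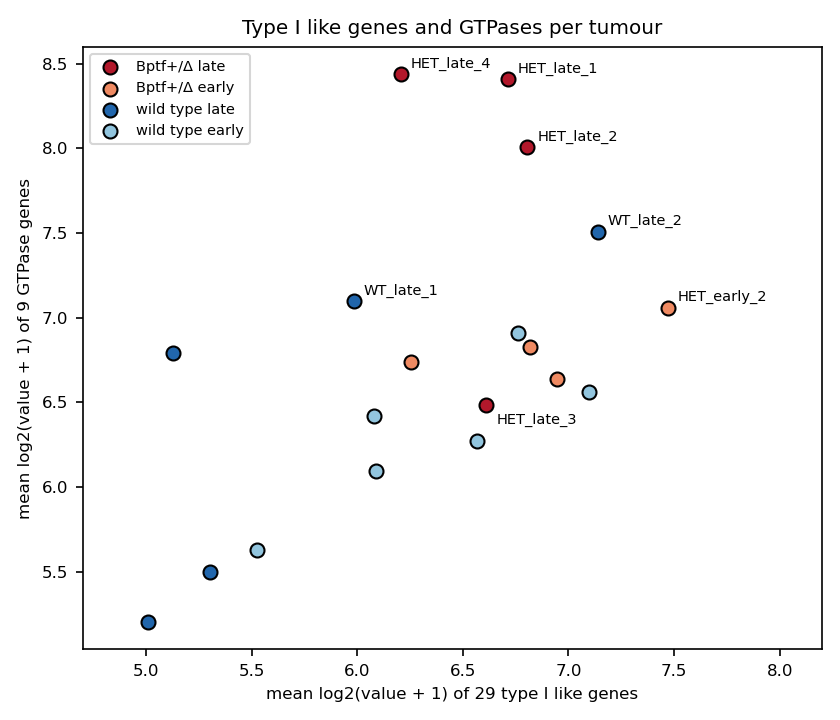
Each point is a tumour, placed by its mean log2(value + 1) over 29 type I like genes (x axis) and over 9 GTPases (y axis) and coloured by group. HET_late_1, HET_late_2 and HET_late_4 lie at 8.01 to 8.44 on the GTPase axis, above the other 16 tumours, and HET_early_2 lies farthest right at 7.47.

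In late tumours, interferon response genes had higher means in the Bptf+/Δ than in the wild-type group for 37 of 42 members, with a median difference of 0.95 on the log2 scale. The GTPases had the higher median, 1.51 with all 9 positive, against 0.91 for the type I like genes with 24 of 29 positive and 1.15 for the 4 chemokine and feedback genes, all positive. Among all genes tested, 51.6% had a positive difference and the median was 0.02. No member passed limma's test with Benjamini-Hochberg adjustment over all genes at 0.05 (0 of 42, smallest adjusted p 0.796), and no gene of the table did (0 of 19927, 0.0%). At an unadjusted limma p under 0.05, 14 members were higher and 0 lower, against 2.67% and 3.46% of all genes. These 14 were Ifit1, Ifit3, Mx1, Rtp4, Zbp1 and Ifi27l2a of the type I like genes, Igtp, Irgm1, Irgm2, Iigp1, Gbp2 and Gbp6 of the GTPases, and Irf1 and Cxcl9. For no member were all late Bptf+/Δ tumours above or below all late wild-type tumours (0 of 42, against 0.477% and 0.532% of all genes). On whole reads, edgeR called 0 members and DESeq2 called 1, Igtp (adjusted p = 0.0319), against 0 and 35 of 19927 genes. The count of 6 type I like genes was 1 with edgeR, 1 with DESeq2, 11 with array weights, 3 without HET_late_2, 3 without WT_late_3 and 16 without WT_late_2. The type I like median was 0.51 with edgeR and 0.52 with DESeq2, and the GTPase median was 0.98 without WT_late_4.

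Igtp, a GTPase that acts on pathogen vacuoles, had normalised read counts of 544, 560.3, 203 and 682 in HET_late tumours, 99.6, 130.3, 109 and 81.7 in HET_early tumours, 266, 236, 116, 83.4 and 57.7 in WT_late tumours and 66.8 to 126 (median 83.4) in WT_early tumours. HET_late_1, HET_late_2 and HET_late_4 lay above every other tumour, and HET_late_3 lay below WT_late_1 and WT_late_2, so the late groups overlapped. The late difference was 1.81 ± 0.42 (log2, SE; limma unadjusted p = 0.000387, adjusted p = 0.796), and the groups averaged 497 ± 206 in HET_late and 152 ± 93.5 in WT_late tumours (SD, n = 4 and 5). Irgm1, which is needed for autophagy and for control of the other immunity-related GTPases, had 698, 688, 618 and 935 in HET_late tumours, 633, 340.3, 484 and 386 in HET_early tumours, 351, 318, 653, 427 and 361 in WT_late tumours and 339 to 547 (median 462) in WT_early tumours. Of the WT_late tumours only WT_late_3 reached the HET_late range, and the late difference was 0.83 ± 0.24 (limma unadjusted p = 0.00274, adjusted p = 0.796). Iigp1, an effector GTPase of the same family, had 509, 272, 67.7 and 384 in HET_late tumours, 54, 137, 36.7 and 66.5 in HET_early tumours, 176, 179, 42.2, 20.5 and 21.2 in WT_late tumours and 21.6 to 97.4 (median 64.9) in WT_early tumours. It was high in HET_late_1, HET_late_2 and HET_late_4, intermediate in WT_late_1 and WT_late_2, and the groups overlapped through HET_late_3 (late difference 2.09 ± 0.70, limma adjusted p = 0.796).

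Irgm2, which regulates the GTPase family and lies next to Igtp, had 339.8, 209, 137 and 403 in HET_late tumours, 126, 609, 100.4 and 113 in HET_early tumours, 206, 223, 94, 68.9 and 58.8 in WT_late tumours and 78.3 to 117 (median 104) in WT_early tumours. Its highest value was in HET_early_2, in which Igtp was at 130.3, and the GENCODE spans of Igtp and Irgm2 overlap, so reads there may be assigned to either gene. Gbp2, a guanylate-binding protein recruited to pathogen vacuoles, had 766, 779, 129 and 489 in HET_late tumours, 159, 162, 225 and 174 in HET_early tumours, 276, 388, 192, 27.8 and 70.6 in WT_late tumours and 80.6 to 171 (median 100.3) in WT_early tumours. The same 3 HET_late tumours exceeded every other tumour, and HET_late_3 lay below WT_late_1, WT_late_2 and WT_late_3. Its late difference was 1.72 ± 0.61 (limma adjusted p = 0.796). Gbp6 showed the highest late difference of the 9, 2.50 ± 0.78, at low counts of 17.3 to 83.5 (median 53.8) in HET_late and 1.18 to 40.8 (median 9.64) in WT_late tumours. Gbp3, Gbp4 and Gbp7 had late differences of 0.54 ± 0.42, 1.51 ± 0.92 and 0.60 ± 0.52, with limma unadjusted p of 0.221, 0.118 and 0.269. Gbp4 and Gbp6 belong to a cluster of near-identical genes, and how reads were divided among them is not known.

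**Figure D3:**
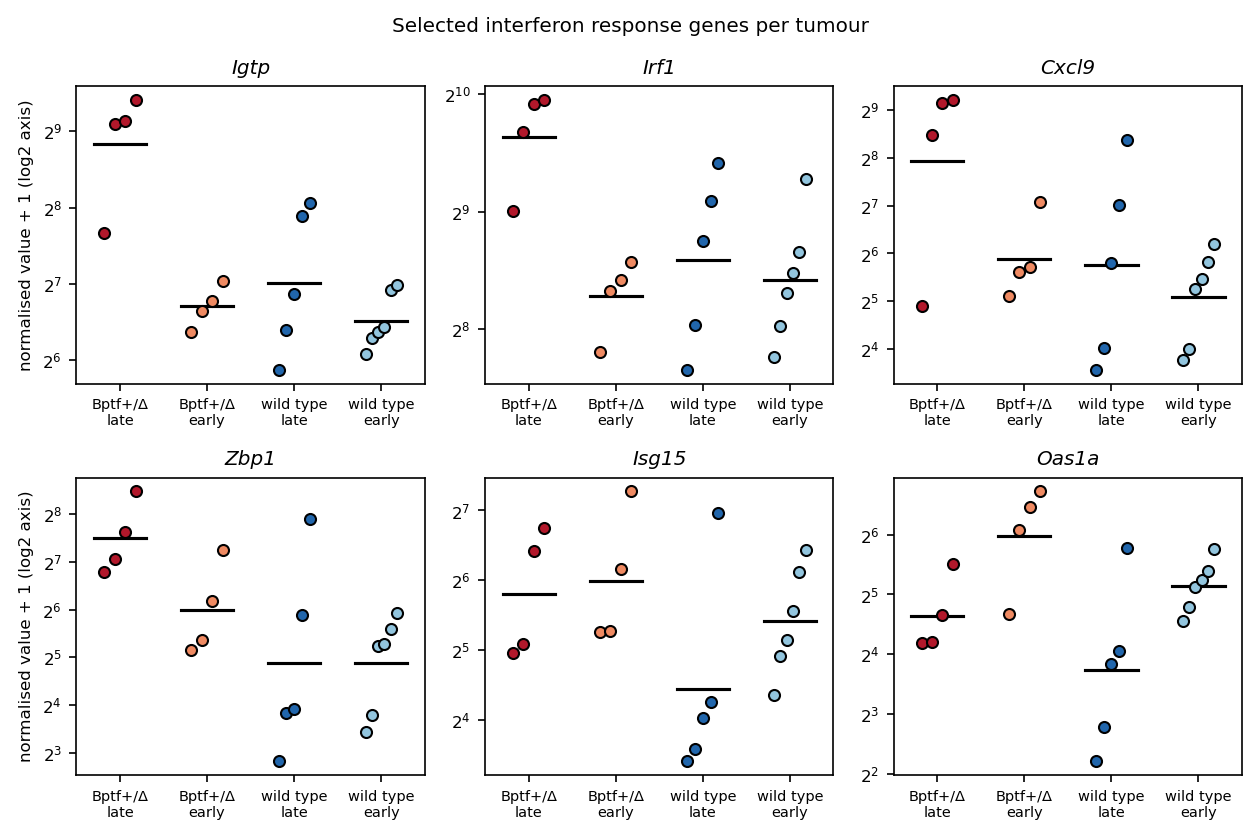
Normalised value + 1 (log2 axis) of 6 members in each tumour, by group, with a bar at the group mean of log2(value + 1). Igtp, Irf1 and Cxcl9 are high in 3 of 4 late Bptf+/Δ tumours, while Oas1a is lower on average in the late than in the early tumours of each genotype and Isg15 is high in WT_late_2 alone among late wild-type tumours.

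Irf1, the transcription factor that carries gamma signals on to ISRE genes, had normalised read counts of 991, 818, 514 and 962 in HET_late tumours, 223, 380.2, 342 and 319 in HET_early tumours, 683, 543, 430.2, 201 and 262 in WT_late tumours and 216 to 619 (median 337) in WT_early tumours. Every HET_late tumour lay above every HET_early tumour, and HET_late_3 alone lay within the WT_late range (late difference 1.05 ± 0.35, limma unadjusted p = 0.00727, adjusted p = 0.796). Cxcl9, a chemokine that attracts T cells through Cxcr3 and is a classic gamma target, had 562, 592, 29.1 and 355 in HET_late tumours, 33.5, 134, 48.2 and 51.4 in HET_early tumours, 54.4, 328, 129, 10.9 and 15.3 in WT_late tumours and 12.8 to 72.6 (median 40.3) in WT_early tumours. HET_late_3 was far below the rest of its group, and WT_late_2 was near HET_late_4, so the late groups overlapped (late difference 2.18 ± 0.95, limma unadjusted p = 0.0327, adjusted p = 0.796). Cxcl10, a Cxcr3 ligand that both interferon types induce, had 27, 50.4, 27.5 and 18.1 in HET_late tumours, 33.5, 266, 35.9 and 14.3 in HET_early tumours, 7.38, 124, 18.1, 2.42 and 3.53 in WT_late tumours and 5.34 to 41.8 (median 15.7) in WT_early tumours. It was high in HET_early_2 and WT_late_2, as the type I like genes were, and its late difference of 1.25 ± 0.95 was -0.042 with edgeR, -0.023 with DESeq2, 2.08 without WT_late_2 and 0.78 without WT_late_4. Socs1, the feedback inhibitor of JAK kinases, had 119, 69.1, 277 and 158 in HET_late tumours, 18.6, 179, 31.8 and 27.8 in HET_early tumours, 117, 244, 20.5, 99.1 and 107 in WT_late tumours and 25.2 to 82.5 (median 67.7) in WT_early tumours. It was highest in HET_late_3, where Cxcl9 and the GTPases were lowest of the group, and its late difference was 0.59 ± 0.66 (limma adjusted p = 0.889), and between 0.064 (without WT_late_3) and 0.94 (without WT_late_2) with 1 tumour left out.

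Among the type I like genes, the regulator Irf7, which amplifies type I signalling, had 182, 298, 151 and 230.4 in HET_late tumours, 171, 465, 195 and 96.8 in HET_early tumours, 101, 636, 41, 43.5 and 33 in WT_late tumours and 55 to 207 (median 133) in WT_early tumours. WT_late_2 had the highest value, so the late groups overlapped, and the other 4 WT_late tumours were at 33 to 101. The late difference was 1.32 ± 0.67 (limma adjusted p = 0.796). It was 0.31 with edgeR, 0.33 with DESeq2 and 2.06 without WT_late_2. Irf9 and Stat2, which belong to the type I complex, differed less, by 0.58 ± 0.29 and 0.24 ± 0.26. Zbp1, a sensor of Z-form nucleic acid that can trigger necroptosis, had 133, 196, 110.1 and 357 in HET_late tumours, 40, 152, 71 and 34.5 in HET_early tumours, 58.1, 239, 13.3, 6.04 and 14.1 in WT_late tumours and 9.79 to 59.7 (median 37.1) in WT_early tumours. Its late difference of 2.62 ± 0.82 was the highest among the 42 members in the limma fit (unadjusted p = 0.00483, adjusted p = 0.796; 1.55 with edgeR), and WT_late_2 alone of its group lay within the HET_late range. The RNA sensors Ifih1 and Ddx58 differed by 0.92 ± 0.47 and 0.39 ± 0.26.

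Isg15, a ubiquitin-like protein conjugated to other proteins in antiviral defence, had 33.1, 85, 107 and 30.1 in HET_late tumours, 70.8, 154, 37.6 and 37.9 in HET_early tumours, 11.1, 123, 9.64, 18.1 and 15.3 in WT_late tumours and 19.7 to 85.2 (median 40.2) in WT_early tumours. WT_late_2 lay above every HET_late tumour, so the late groups overlapped, and the other 4 WT_late tumours were at 9.64 to 18.1. The late difference was 1.36 ± 0.68 (0.84 with edgeR and with DESeq2, and 1.99 without WT_late_2). Ifit1, which binds foreign RNA caps, had 36.6, 54.7, 66.1 and 13.6 in HET_late tumours, 48.4, 146, 29.4 and 36.2 in HET_early tumours, 1.84, 77.5, 1.2, 4.83 and 4.71 in WT_late tumours and 8.9 to 56 (median 27.3) in WT_early tumours. It had the same pattern, with 4 low WT_late tumours and WT_late_2 above every HET_late tumour (late difference 2.44 ± 0.88, limma adjusted p = 0.796). Ifi27l2a had 405, 1535, 1879 and 298 in HET_late tumours, 241, 405, 710.2 and 279.5 in HET_early tumours, 295, 326, 123, 124 and 251 in WT_late tumours and 157 to 875 (median 289.8) in WT_early tumours. Its highest values were in HET_late_3, which was low in GTPases, and in HET_late_2, and the late groups overlapped (late difference 1.90 ± 0.61, limma adjusted p = 0.796). Bst2, which tethers budding viruses to the cell, had 1821, 4128, 481 and 1507 in HET_late tumours, 494, 578, 581 and 370.4 in HET_early tumours, 2575, 1006, 411, 409.6 and 812 in WT_late tumours and 323 to 741 (median 556) in WT_early tumours. It was at 1006 or more in HET_late_1, HET_late_2, HET_late_4, WT_late_1 and WT_late_2 and below that in all others, and these are the 5 tumours with the highest GTPase means. The 5 type I like genes with a negative late difference were Mx2 (-0.13), Trim30a (-0.13), Parp9 (-0.05), Parp14 (-0.08) and Dtx3l (-0.36).

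Most markers of T cells, cytotoxic cells, macrophages and plasmacytoid or dendritic cells also had higher means in late Bptf+/Δ tumours. The part of these markers in the values above was not tested. The 14 cytotoxic and natural killer markers summed to 81.8 to 2745 (median 1257) in HET_late, 170.1 to 536 (median 200.3) in HET_early, 44.7 to 875 (median 95.0) in WT_late and 46.2 to 380.2 (median 140.2) in WT_early tumours. The lowest HET_late sum was in HET_late_3, where the GTPases were low, and the highest WT_late sum was in WT_late_2. WT_late_1 had a cytotoxic sum of 95.0 and the highest T cell sum of its group (10041), with a GTPase mean of 7.10. HET_early_1 had the highest HET_early cytotoxic sum (536) and a T cell sum of 2572, with the lowest HET_early GTPase mean (6.64). The 20 T cell markers summed to 4304 to 11264 (median 6074) in HET_late, 2226 to 2994 (median 2649) in HET_early, 1286 to 10041 (median 2366) in WT_late and 838 to 3206 (median 1192) in WT_early tumours. In late tumours, 14 of 14 cytotoxic markers (median 1.36) and 17 of 20 T cell markers (median 1.63) had higher means in the Bptf+/Δ group. In each list 5 had an unadjusted limma p under 0.05 (against 2.67% of all genes). Higher means were also seen for 15 of 16 macrophage (median 0.99, 2 at that level) and 7 of 9 plasmacytoid and dendritic markers (median 0.97, 1 at that level). Lower means were seen for 12 of 15 pan-B markers (median -0.66). The 16 macrophage markers summed to 7006 to 36161 in HET_late, 11384 to 39428 in HET_early, 8243 to 42689 in WT_late and 6707 to 14689 in WT_early tumours, with the highest sums in HET_early_2 and WT_late_2 within HET_early and WT_late. The 9 plasmacytoid and dendritic markers summed to 781 to 7027 in HET_late, 1326 to 2770.2 in HET_early, 462 to 8621 in WT_late and 540.5 to 1695 in WT_early tumours, and the lowest HET_late sum was again in HET_late_3. The highest of all was in WT_late_1 (8621), where the type I like mean was 5.98. None of the markers in these 4 lists was at 0 in all tumours of any group.

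Early tumours showed a smaller difference of the same sign in most members. The Bptf+/Δ group had the higher mean for 36 of 42 members, with a median of 0.61 on the log2 scale (25 of 29 type I like genes, median 0.60; 9 of 9 GTPases, median 0.73; 2 of 4 chemokine and feedback genes). The median of all genes was 0.09, and 55.5% of all genes had a positive difference. Without HET_early_2 the median was 0.31 for the 42 members, 0.31 for the type I like genes and 0.25 for the GTPases, and without WT_early_3 it was 0.39, 0.37 and 0.45. Without HET_early_3 the GTPase median was 0.49. With quantile normalisation these medians were 0.25, 0.24 and 0.26, and with array weights 0.34, 0.35 and 0.19. Markers of B cells and of other cells also differed, with lower means of 15 of 15 pan-B markers (median -1.36). Means were higher for 11 of 11 endothelial (median 0.95, 6 at an unadjusted p under 0.05), 11 of 12 stromal (median 0.97) and 12 of 16 macrophage markers (median 0.57). They were also higher for 18 of 20 T cell (median 0.90), 11 of 14 cytotoxic (median 0.77) and 8 of 9 plasmacytoid and dendritic markers (median 0.89). The part of these markers in the result was not tested. These medians include HET_early_2, and marker medians without it are not given. Its pan-B sum was 1503, against 42142, 57982 and 39918 in HET_early_1, HET_early_3 and HET_early_4 and 33332 to 59219 in WT_early tumours. In the same order, stromal sums were 999633, against 16212, 5796 and 15758 and against 8690.5 to 32679. Endothelial sums were 9718, against 5586, 4772 and 4093 and against 1949 to 4470. None of the 42 members passed the limma test (smallest adjusted p 0.435), nor did any of 19927 genes (0.0%). At an unadjusted p under 0.05, 0 members were higher and 0 lower, against 7.39% and 4.12% of all genes. For no member did the early groups lie apart (0 of 42, against 1.5% higher and 1.3% lower over all genes). On whole reads edgeR and DESeq2 called 0 members, against 0 and 400 of 19927 genes. At that unadjusted level, leaving out a single tumour gave at most 2 type I like genes (without HET_early_4) and at most 1 GTPase. Igtp differed by 0.20 ± 0.40, Irgm1 by 0.03 ± 0.23, Irf1 by -0.14 ± 0.33, Zbp1 by 1.11 ± 0.79 and Isg15 by 0.57 ± 0.65.

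Averaged over onset, 40 of 42 members had a higher mean in Bptf+/Δ than in wild-type tumours, with a median of 0.87 (0.81 for the type I like genes, 1.0 for the GTPases and 0.91 for the chemokine and feedback genes), against 55.8% positive and a median of 0.06 over all genes. Again 0 members and 0 of 19927 genes (0.0%) passed the limma test, edgeR and DESeq2 called 0 members, and 17 members were higher and 0 lower at an unadjusted p under 0.05, against 5.16% and 4.81% of all genes. With quantile normalisation the overall median was 0.55 and the type I like median 0.50, and with edgeR the type I like median was 0.53. Without HET_early_2 the overall median was 0.69 and the type I like median 0.60. Pan-B markers had lower means for 15 of 15 (median -0.96). Means were higher for 18 of 20 T cell (median 1.43), 14 of 14 cytotoxic (median 1.09) and 16 of 16 macrophage markers (median 0.74). They were also higher for 8 of 9 plasmacytoid and dendritic (median 0.73), 12 of 12 stromal (median 0.66) and 11 of 11 endothelial markers (median 0.48). The part of these markers in the result was not tested. These medians include HET_early_2, whose pan-B sum was the lowest and whose stromal sum was the highest of all tumours. Of the 17 members, 9 were type I like genes, 7 were GTPases and 1 was Cxcl9. The count of 9 was 4 with edgeR, 5 with quantile normalisation, 4 without HET_early_2, 14 without HET_early_4 and 17 without WT_late_2, and without the 3 tumours led by another transcript it was 5 and the count of 7 was 4. Dtx3l (-0.29) and Stat2 (-0.02) were the 2 members with a negative difference. The difference between the late and the early genotype effect was positive for 28 of 42 members (median 0.50, all genes -0.07, 46.1% positive). By that test 0 members passed (0 of 19927 genes, 0.0%), edgeR and DESeq2 called 0 members, and Igtp (1.61 ± 0.58, limma unadjusted p = 0.0123, adjusted p = 0.706), Irgm1 (0.80 ± 0.33) and Irf1 (1.18 ± 0.48) had an unadjusted p under 0.05, against 2.53% of all genes with a positive value, and 0 members with a negative value did (against 4.41%). The overall median was 0.31 without WT_late_5, 0.32 without HET_early_4, 0.77 without WT_late_2, 0.25 with edgeR, 0.17 with DESeq2 and 0.88 with array weights. The GTPase median was 0.80 (1.54 without HET_late_3, 0.40 without WT_late_4), and the type I like median was 0.40 (-0.05 without HET_early_4, 0.63 without WT_late_2, 0.013 with edgeR and -0.09 with DESeq2).

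Late and early tumours differed in opposite directions in the medians of the lists, a difference between lists that was not tested. Averaged over genotype, late tumours had higher means than early tumours for 8 of 9 GTPases (median 0.55) and for Irf1, Cxcl9 and Socs1, but lower means for 22 of 29 type I like genes (median -0.50). Over all genes, 44.0% were higher in late tumours and the median was -0.08. The GTPase median was 0.34 without WT_late_2, 0.36 without HET_late_4, 0.86 without HET_late_3 and 0.98 with edgeR, and the type I like median was -0.23 without the 3 tumours led by another transcript. Means were also higher for 19 of 20 T cell (median 0.76), 12 of 14 cytotoxic (median 0.83), 6 of 9 plasmacytoid and dendritic (median 0.57) and 9 of 16 macrophage markers (median 0.20). They were lower for 9 of 11 endothelial markers (median -0.81, 7 at an unadjusted p under 0.05) and 10 of 12 stromal markers (median -0.86). The part of these markers in the result was not tested. These medians include HET_early_2, which had the highest stromal and endothelial sums of all tumours. No member passed limma's adjusted test (0 of 42, against 87 of 19927 genes, 0.437%). Igtp came nearest, at 1.31 ± 0.29 (adjusted p = 0.0523). Its adjusted p was under 0.05 with quantile normalisation (0.0433), TMM scaling (0.0473), edgeR (0.0334), DESeq2 (0.000112) and array weights (0.0172), and without HET_late_1 (0.0488), HET_late_3 (0.0185), HET_early_2 (0.0446), WT_late_3 (0.0403) or WT_late_5 (0.0452). The count of 87 genes ranged between 0 and 490.0 as single tumours were left out, with 0 for 10 of the 19 tumours. At an unadjusted p under 0.05, Bst2, Igtp, Irf1 and Socs1 were higher (4 members, against 8.8% of all genes) and Rsad2, Oas1a, Oas2, Oasl1, Rtp4 and Xaf1 lower (6 members, against 10.2% of all genes). The count of 6 was 13 without WT_late_2, 3 with edgeR and 2 without the 3 tumours led by another transcript. By edgeR the called members were Bst2 and Igtp, and by DESeq2 Oas1a, Oas2, Bst2, Igtp, Iigp1, Gbp2, Irf1 and Cxcl9. Over all genes edgeR called 539 and DESeq2 1855 of 19927.

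**Figure D4:**
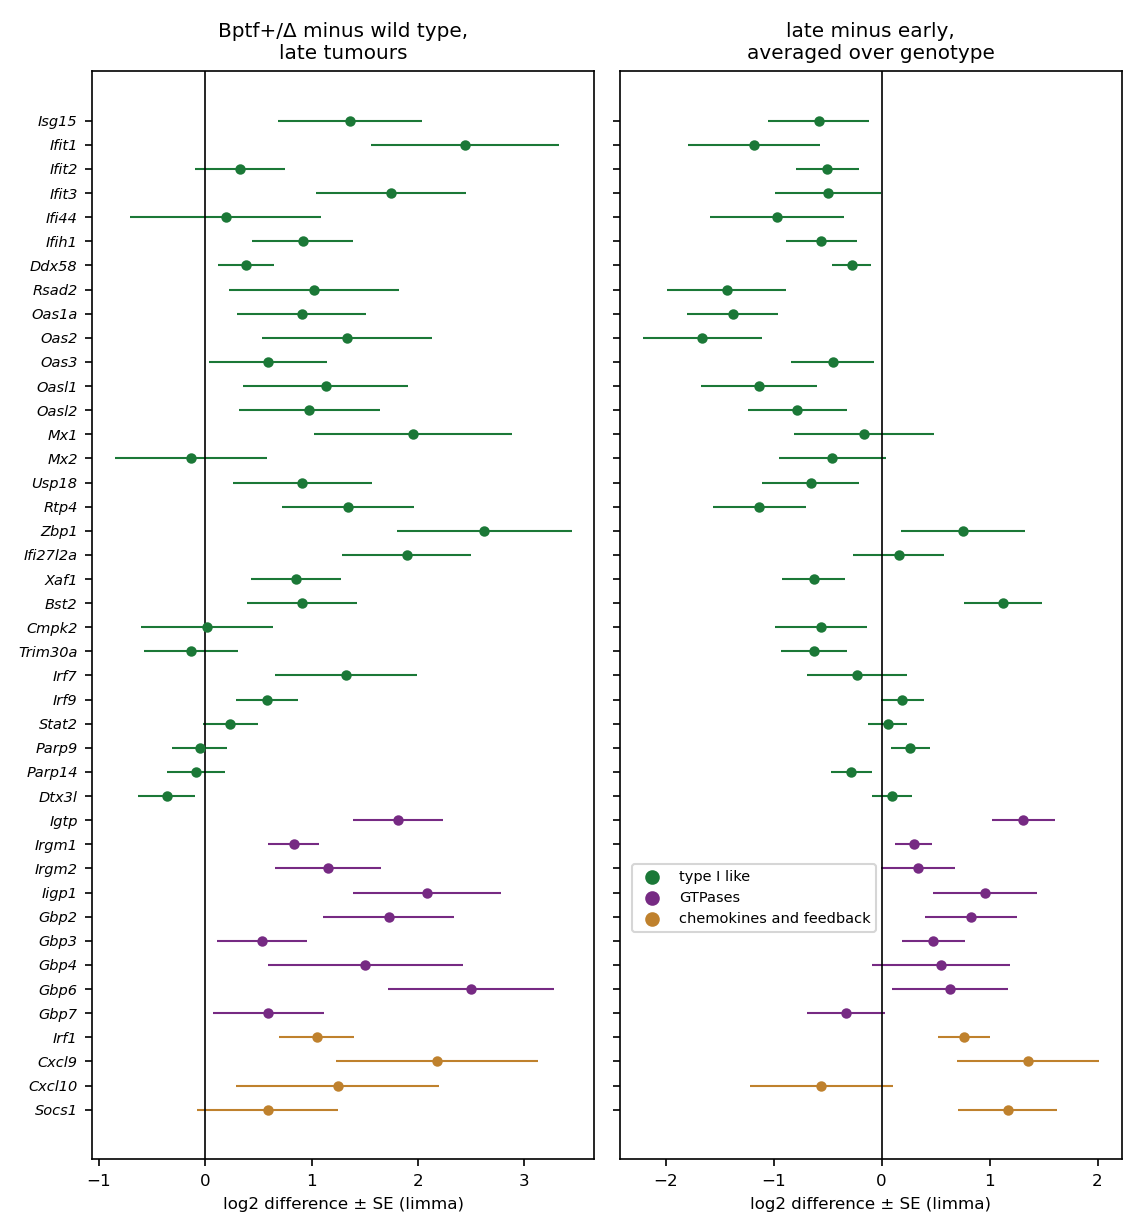
Log2 difference with its SE (limma) for each of the 42 members, for Bptf+/Δ minus wild type in late tumours (left) and for late minus early tumours averaged over genotype (right), coloured by list. All 9 GTPases are above 0 on the left, and on the right 8 of 9 GTPases are above 0 while 22 of 29 type I like genes are below it.

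Late tumours had 6 type I like genes lower at an unadjusted p under 0.05 (against 10.2% of all genes). Of these, 3 (Oas1a, Oas2 and Oasl1) belong to the oligoadenylate synthetase family. Oas3 and Oasl2, members of the same family, were not lower at that level. The active enzymes of the family are best known for activating RNase L through their product. Oas1a had 17.4, 44.6, 17.3 and 24.1 in HET_late tumours, 87.5, 105, 66.1 and 24.4 in HET_early tumours, 15.7, 54, 13.3, 3.62 and 5.88 in WT_late tumours and 22.6 to 52.9 (median 35.3) in WT_early tumours. Within each genotype the late group was lower on average, and the groups overlapped through HET_late_2, HET_early_4 and WT_late_2 (late minus early -1.38 ± 0.42, limma unadjusted p = 0.00412, adjusted p = 0.108). Oas2 differed by -1.66 ± 0.55 and Rsad2, the antiviral enzyme viperin, by -1.43 ± 0.55 (limma adjusted p = 0.129 and 0.177). Oasl1 differed by -1.13 ± 0.54, with a value of 159 in WT_early_5 against 9.83 to 35.7 in the other WT_early tumours. Oas1a has close paralogues in the mouse genome, and reads shared with them cannot be placed with certainty.

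Within Bptf+/Δ tumours, late tumours had higher means than early ones for 8 of 9 GTPases (median 0.90, 1.75 without HET_late_3 and 0.57 without HET_late_4), for Irf1, Cxcl9 and Socs1, and for 10 of 29 type I like genes (median -0.50, -0.23 without HET_late_4, -0.26 without HET_early_2 and -0.14 without the 3 tumours led by another transcript). That is 21 of 42 members, against 43.9% of all genes. Igtp (2.12 ± 0.44, limma adjusted p = 0.0548) and Irf1 (1.36 ± 0.37, adjusted p = 0.0863) were higher in every late than in every early tumour, a pattern seen in 3.51% of all genes, and Ifi44 was lower in every late tumour, a pattern seen in 4.32%. By limma 0 of 42 members and 0 of 19927 genes (0.0%) passed. At an unadjusted p under 0.05, 7 members were higher (Bst2, Igtp, Irgm1, Iigp1, Gbp6, Irf1 and Socs1, against 8.42% of all genes) and 1, Oas1a, was lower (against 11.1%). On whole reads edgeR called 0 members and DESeq2 called 5 (Bst2, Igtp, Iigp1, Irf1 and Cxcl9), against 0 and 1731 of 19927 genes. Without HET_late_3 limma called Bst2 and Igtp (adjusted p = 0.0433 and 0.0305), and without WT_late_1 or WT_late_3 it called Igtp (0.043 and 0.0447). Over all genes these fits called 257, 52 and 92. In the authors' deposited table, whose test is not named in the sources used here, Igtp (log2 fold change 2.28, adjusted p = 0.0011) and Irf1 (1.43, adjusted p = 0.0172) were the 2 of 42 members called higher in this comparison, against 1.39% of 14361 genes. No member was called in the other 4 comparisons of the authors' deposited table.

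Within wild-type tumours the GTPase median was 0.14 (6 of 9 positive) and the type I like median was -0.60 (5 of 29 positive), against -0.02 and 48.4% positive over all genes. The GTPase median changed sign without WT_late_1 (-0.083) or WT_late_2 (-0.11) and with array weights (-0.12). It was 0.38 without WT_late_4, 0.36 without WT_late_5, 0.042 to 0.075 without WT_early_2, WT_early_3 or WT_early_5, and 0.53 with edgeR. The type I like median was -0.98 without WT_late_2 and -0.32 with edgeR. Again 0 of 42 members and 0 of 19927 genes (0.0%) passed by limma, and edgeR and DESeq2 called 0 members. Ifit1, Rsad2, Oas1a, Oas2, Rtp4 and Xaf1 were lower at an unadjusted p under 0.05 (6 members, against 2.44% of all genes), and 0 members were higher (against 2.41%). That count was 1 with edgeR, 3 with DESeq2, 14 without WT_late_2, 3 without WT_late_3, 1 without WT_late_4, 2 without WT_late_5 and 2 without WT_early_1. The comparisons of onset and of genotype share tumours, so their values are not independent of each other.

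Upstream of these genes, Ifng was the only one of 11 listed interferon genes in the table, and the others were not analysed here. It had 6.97, 8.64, 0.787 and 3.01 in HET_late tumours, 0, 1.33, 0.816 and 0.842 in HET_early tumours, 2.77, 6.12, 1.2, 0 and 0 in WT_late tumours and 0 to 4.35 (median 0) in WT_early tumours. These values rest on 0 to 8 reads per tumour, and the late genotype difference was 1.10 ± 0.66 (limma adjusted p = 0.796). Late minus early was 1.08 averaged over genotype (limma adjusted p = 0.215) and 1.54 in HET tumours (limma adjusted p = 0.231). Both had an unadjusted limma p under 0.05 (against 8.8% and 8.42% of all genes higher). A count of 0 in a tumour allows up to 3 reads. The 6 receptor chains had late genotype differences of -0.29 to 0.74, and 0 of 6 had an unadjusted p under 0.05. At that level, Ifngr1 alone of the 6 was higher in early Bptf+/Δ than early wild-type tumours (against 7.39% of all genes). It alone had a negative interaction at that level (against 4.41%). Jak1 was lower in every HET_late than in every HET_early tumour, a pattern seen in 4.32% of all genes (late minus early -0.98 ± 0.31, limma adjusted p = 0.118). Its genotype difference was positive in early tumours and its interaction negative, each at an unadjusted limma p under 0.05 (against 7.39% and 4.41% of all genes). Jak2 differed by 0.80 ± 0.29 between late and early tumours averaged over genotype (limma adjusted p = 0.154).

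Of 13 nucleic acid sensing genes in the table, 0 had an unadjusted p under 0.05 for genotype in late tumours (median 0.02), and none of them passed the adjusted limma test in any of the 7 comparisons. For onset averaged over genotype, Samhd1 (0.80 ± 0.21), Irf5 (0.73 ± 0.22), Tmem173, which encodes STING (0.91 ± 0.30), Irf8 and Myd88 were higher and Mb21d1, which encodes cGAS (-0.99 ± 0.37), was lower at that level (5 of 13 higher and 1 of 13 lower, against 8.8% and 10.2% of all genes). Of 36 other interferon-induced genes, 26 had a positive late genotype difference (median 0.50), and the 3 with an unadjusted p under 0.05 (against 2.67% of all genes higher) were Tgtp2 (2.03 ± 0.79) and Gbp11 (1.94 ± 0.70), which are further GTPases, and Ifi204 (1.31 ± 0.55), a DNA sensor. For onset averaged over genotype, 6 of the 36 were higher (Sp100, Ifi47, Tgtp1, Ifitm1, Ciita and Cd274) and 4 lower (Eif2ak2, Herc6, Ddx60 and Lgals9) at that level (against 8.8% and 10.2% of all genes), with 0 passing the adjustment. Ciita, the gamma-induced master regulator of MHC class II, was at 1.30 ± 0.34 (limma adjusted p = 0.0753) and Herc6, the ligase that attaches Isg15 in mice, at -0.99 ± 0.25 (adjusted p = 0.0681).

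Across the 19 tumours, Ifng was related to Cxcl9 (Pearson r = 0.87, permutation p = 1e-05, the smallest that 100000 resamples can give; adjusted over 6 pairs 6e-05; Spearman rho = 0.92, permutation p = 2e-05, adjusted 0.00012). With HET_late_1 and HET_late_2 left out, the 2 tumours whose Ifng was farthest from its median, the r was 0.78, and it was 0.94 within 8 HET tumours and 0.79 within 11 WT tumours. Ifng was likewise related to Igtp (r = 0.81, permutation p = 7e-05, adjusted 0.00014; rho = 0.79, permutation p = 0.00019, adjusted 0.00057), with 0.69 without those 2 tumours, 0.86 within HET and 0.79 within WT tumours. Within HET tumours the r had an exact permutation p of 0.00965 (adjusted 0.0289). The rho there was 0.69 and missed 0.05 (exact permutation p = 0.0694, adjusted 0.208). Within WT tumours the rho was 0.74 (permutation p = 0.0129, adjusted 0.0257). With Isg15 the relation was not detected (r = 0.29, permutation p = 0.229, adjusted 0.274; rho = 0.30, permutation p = 0.209, adjusted 0.209; 0.27 without those 2 tumours; -0.19 within HET and 0.40 within WT tumours). Irf7 and Isg15 were related over all tumours (r = 0.82, permutation p = 4e-05, adjusted 0.00012; rho = 0.74, permutation p = 0.00041, adjusted 0.00082). That r was 0.78 without WT_late_2 and WT_late_5 and 0.86 within WT tumours, but 0.53 within HET tumours (exact permutation p = 0.188). For Irf7 and Igtp the r was 0.54 (permutation p = 0.0181, adjusted 0.0271; rho = 0.67, permutation p = 0.00203, adjusted 0.00305). It was 0.47 without WT_late_2 and WT_late_5 (permutation p = 0.0597), 0.31 within HET and 0.60 within WT tumours, so it missed 0.05 without those 2 tumours. Igtp and Isg15 gave r = 0.21 (permutation p = 0.384, adjusted 0.384; rho = 0.35, permutation p = 0.142, adjusted 0.17; 0.22 without HET_late_2 and HET_late_4; -0.23 within HET and 0.25 within WT tumours). The 2 values of each point come from 1 library and share its depth and cell content, and each Ifng value rests on 0 to 8 reads, so its position in any single tumour is imprecise. The permutations over 19 tumours disregarded group, and those within a genotype mixed early and late tumours. Differences between the groups therefore enter each r and its p. Within HET tumours, late minus early was 1.54 for Ifng, 2.05 for Cxcl9 and 2.12 for Igtp.

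**Figure D5:**
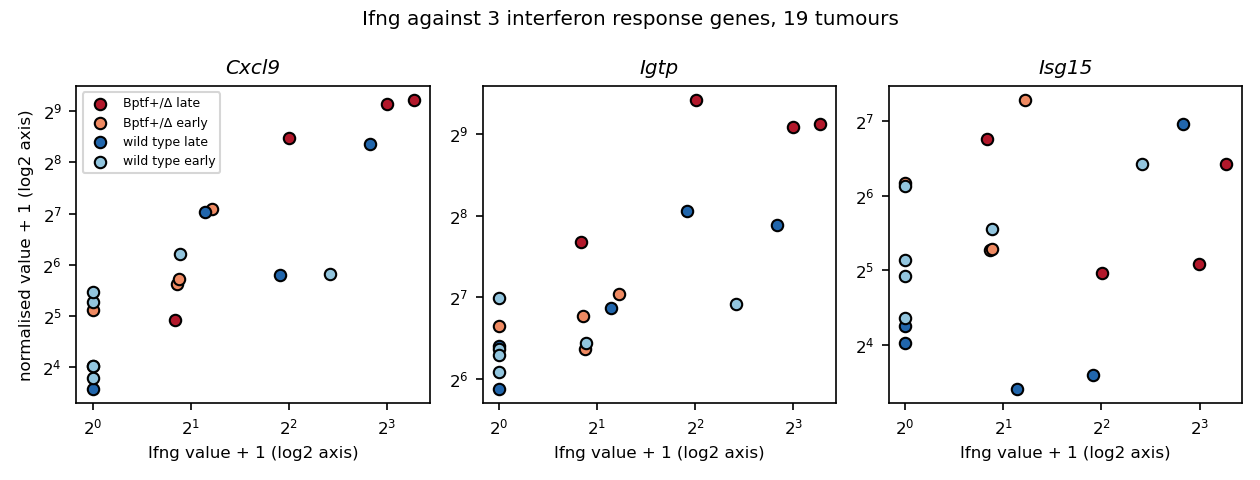
Normalised value + 1 of Cxcl9, Igtp and Isg15 (y axes) against that of Ifng (x axes), both on log2 axes, with each point a tumour coloured by group. The r with Ifng, which rests on 0 to 8 reads a tumour, is 0.87 for Cxcl9, 0.81 for Igtp and 0.29 for Isg15.

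Likeness between members over the 19 tumours is given as a description without a test, since all points share library and depth. Differences between the groups enter each r here too. The median Pearson r between pairs of genes was 0.61 among the GTPases (36 pairs), 0.45 among the type I like genes (406 pairs) and 0.29 between these lists (261 pairs). Taking each gene against the mean of either list without itself, 25 of 29 type I like genes were nearer to the type I like mean and all 9 GTPases nearer to the GTPase mean. The 25 include Dtx3l (-0.34 with the type I like mean, -0.36 with the GTPase mean), Cmpk2 (0.07 and -0.36) and Stat2 (0.45 and 0.42), which were near neither list or about equally near both. The 4 exceptions were Zbp1 (0.86 with the GTPase mean, 0.69 with the type I like mean), Bst2 (0.67 and 0.17), Irf9 (0.71 and 0.50) and Parp9 (0.41 and 0.14). Of the other 4 genes, Cxcl9 (0.93 and 0.48) and Irf1 (0.81 and 0.23) were nearer to the GTPases, Cxcl10 (0.84 with the type I like mean, 0.55 with the GTPase mean) was nearer to the type I like genes, and Socs1 was near neither (0.18 with the GTPase mean, 0.09 with the type I like mean). The gene nearest to the type I like mean was Rtp4 (0.96), a receptor transporter, and Gbp2 (0.94) was nearest to the GTPase mean.

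Per kilobase of exon, the mean level over the 19 tumours was highest for Ifi27l2a (1078 normalised reads per kilobase) and Bst2 (1074), which differed by less than their range over tumours (265 to 4059 and 358 to 4571). Irf1 (117), Dtx3l (108), Igtp (97.0), Gbp2 (93.8), Parp9 (91.4) and Irgm1 (86.7) followed, also with ranges that overlap. The lowest levels were those of Ifih1 (8.7), Oas3 (7.6), Mx2 (3.9), Gbp6 (3.6) and Ifi44 (2.7). By group, Igtp was at 245.9, 51.9, 75.0 and 45.9 normalised reads per kilobase in HET_late, HET_early, WT_late and WT_early tumours, and Oas2 at 7.0, 18.1, 3.9 and 13.0.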

How the data were processed

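Polyadenylated RNA of 19 mouse lymphomas was sequenced, per the labels' protocols. Per the submitters' processing notes, which name no roles, the tools included Cufflinks 2.2.1 with Cuffdiff and Cuffnorm, TopHat2 2.1.1 and FastQC 0.11.5, and the genome was GRCm38/mm10. The sources used here do not give the strand setting, the annotation or the tool behind each column. The authors deposited a table of normalised expression signal, in which all values were whole reads (within 0.01) divided by 1 factor per library, so the count per gene could be recovered. The deposited table also holds the authors' log2 fold changes and adjusted p-values, second-named group over first.

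Values were tested as log2(value + 1), a scale that understates changes of low genes, with limma 3.58.1 (R 4.3.3; trend, 4 group means, 7 contrasts, Benjamini-Hochberg at 0.05 over 19927 genes that reached a normalised value of 1 in 4 or more tumours). Differences are HET minus WT or late minus early, with the SE of limma. edgeR 4.0.16 (quasi-likelihood) and DESeq2 1.42.0 were run on the recovered counts. Other alternatives were a pseudocount of 0.1, no filter, quantile normalisation, TMM scaling, array weights, and leaving out each tumour or the 3 tumours led by another transcript. Bptf and 6 gene pairs were tested by permutation (100000 resamples for the pairs). For the pairs, permutation over all 19 tumours disregarded genotype and onset. No pair of the 19 libraries agreed within sampling noise. Separate animals are not stated in the labels for each tumour, so p-values measure the spread between these samples.

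The members and lists were chosen with earlier results of these data known. All 42 members could be named. Values in every tumour were given for members with the smallest p in their list for late genotype or onset, for Irf7, Isg15, Zbp1, Igtp, Irgm1, Cxcl9, Cxcl10 and Socs1, and for Ifng. Those of Irgm2, Gbp2 and Ifit1 were added after their values were seen. A result that needs a withheld item is not reported here. Gene positions and exon lengths are from GENCODE M21. In the table, 23 symbols had been turned into dates.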

Additional observations from a re-analysis of the deposited data

Results flagged for a closer look

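Of 72 groups of 4 to 6 tumours checked for a value far from the rest (the members given by tumour above, with Ifng and Bptf, in each group and on the log2(value + 1) scale), 6 held one by Dixon's criterion, which chance meets in about 1 in 20 groups. The count of 6 cannot be set against that rate. The genes share tumours, and Irgm2, Gbp2 and Ifit1 were added after their values were seen. Cxcl9 was at 29.1 normalised reads in HET_late_3, far below the other HET_late tumours. In WT_late_2, Isg15 was at 123 and Ifit1 at 77.5, each far above the other WT_late tumours. Irgm2 was at 609 in HET_early_2, far above the other HET_early tumours. In WT_early_1, Socs1 was at 25.2, below the other WT_early tumours, and Ifng was at 4.35, above them, which rests on 5 reads.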

How the results depend on the processing

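No paired analysis was possible because no label pairs tumours. The labels carry no replicate numbers, so the number in a tumour's name only tells the tumours of a group apart. Of all genes, DESeq2 called 18 for genotype averaged over onset, 35 for genotype in late tumours, 400.0 for genotype in early tumours, 121 for onset in WT tumours and 96 for the interaction, where limma called 0. Array weights gave 110.0 for genotype in early tumours. Leaving out 1 tumour gave 0 to 2 genes for genotype in late tumours (2 without HET_late_3) and 0 to 2 in early tumours (2 without WT_late_3). For onset averaged over genotype (87 genes), edgeR called 539 genes, DESeq2 1855 and array weights 667, the fit without the 3 tumours led by another transcript called 0, and leaving out 1 tumour gave 0 to 490.0 (the highest without HET_late_3). For onset in HET tumours (0 genes), quantile normalisation gave 59, TMM 19, DESeq2 1731, array weights 191, and leaving out 1 tumour 0 to 257 (the highest without HET_late_3). Members called were 1 for genotype in late tumours with DESeq2. For onset averaged over genotype they were 1 with quantile normalisation, 1 with TMM, 2 with edgeR, 8 with DESeq2, 2 with array weights and 0 to 2 with 1 tumour left out. For onset in HET tumours they were 1 with quantile normalisation, 5 with DESeq2, 2 with array weights and 0 to 2 with 1 tumour left out. With 1 tumour left out, the GTPase median was 0.57 to 1.75 for onset in HET tumours and 0.40 to 1.54 for the interaction, highest without HET_late_3 in both. The r of Irf7 and Igtp was 0.41 with quantile normalisation and 0.48 to 0.59 with 1 tumour left out, with an adjusted p above 0.05 without HET_late_2 (0.49) or WT_late_5 (0.48). Signs changed for Cxcl10 in late genotype with edgeR (-0.042) and DESeq2 (-0.023). For onset averaged over genotype they changed for Irf7 with edgeR (0.18) and DESeq2 (0.14), Cxcl10 without the 3 tumours (0.083) and Ifi27l2a with 1 tumour left out (-0.054 to 0.39). For onset in HET tumours they changed for Irf7 with edgeR (-0.037), DESeq2 (-0.11) and 1 tumour left out (-0.26 to 0.49), for Isg15 with array weights (0.029), without the 3 tumours (0.52) and with 1 tumour left out (-0.51 to 0.24), and for Cxcl10 with array weights (0.085), without the 3 tumours (0.36) and with 1 tumour left out (-1.23 to 0.14). The cause was not tested. At the depth of these libraries Ifng has 0 to 8 reads, which leaves its level in any single tumour imprecise.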
